A study of Mus musculus with 10 samples.

Results

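Folding and quality control of secreted proteins take place in the endoplasmic reticulum (ER), and 46 genes of that machinery were followed in osteocytes, the cells embedded in bone matrix, of mice with and without myeloma. The genes were chosen by symbol and are 46 of the 22548 genes in the deposited table. They were divided into 40 secretory members, which import, fold, glycosylate or discard proteins, 3 stress sensors (Atf6, Ern1 and Eif2ak3) and 3 stress effectors (Atf4, Ddit3 and Trib3). Bulk RNA-seq was performed on 10 mice, 1 library per mouse, all of them C57BL/6 males with an age of 8 weeks in the labels, which do not say whether this is the age at injection or at collection. The MM group held 5 mice that had received cells of the murine myeloma line Vk12598 by injection into the femur, and the No MM group held 5 control mice, numbered here 1 to 5 for No MM and 6 to 10 for MM as in the labels. Myeloma is a cancer of plasma cells, the antibody-secreting cells of the marrow. Osteocytes were released from bone pieces by repeated collagenase and EDTA digestion once the marrow had been removed, with no sorting step given, so that a library is a preparation of bone cells rather than of 1 sorted cell type.

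Proteins destined for secretion enter the ER through the Sec61 channel while they are being made. Signal peptidase cuts off the leader, the oligosaccharyltransferase attaches sugars, chaperones and disulfide isomerases fold the chain, and chains that fail to fold are drawn back to the cytosol and degraded (ER-associated degradation, ERAD). Cells with a high secretory load, such as plasma cells and matrix-forming osteoblasts, carry much of this machinery. When unfolded protein builds up, the sensors ATF6, IRE1 (Ern1) and PERK (Eif2ak3) raise the chaperone and ERAD genes, and PERK in addition acts through ATF4 and its targets CHOP (Ddit3) and TRIB3, which are known for growth arrest and cell death under lasting stress.

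The chaperone and ERAD genes are textbook targets of the ER stress response element (ERSE), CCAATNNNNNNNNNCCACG, and of its shorter form ERSE-II, ATTGGNCCACG. Both were searched on both strands of the RefSeq promoter windows of GRCm38.p6, which run from 250 bases before to 50 bases after a transcript start and were matched for 37 of the 46 members (not for Hyou1, Manf, Ssr2, Sec61a1, Sec11c, Spcs3, Ostc, Derl1 and Atf6). ERSE was found for 10 of the 37 members (27.0%) and for 37 of all 27025 genes with a window (0.137%). The 10 were Calr, Canx, Creld2, Derl3, Dnajc3, Ero1lb, Hsp90b1, Hspa5, Pdia6 and Syvn1, all of them secretory members, out of 32 secretory members, 2 sensors and 3 effectors with a window. ERSE-II was found for Dnajb11 and Herpud1 (5.41% of members and 0.0444% of all genes). The element through which ATF4 acts (CARE), TGATGNAAN, was found for Herpud1 and Trib3, which was 5.41% of members beside 4.5% of all genes. CARE does not overlap the other motifs in these windows, and a match is a description of the letters only. The stretches shown next are the upstream matches of 6 members whose levels are described below, with the matched motif in capitals, read 5′ to 3′ on the strand of the gene. For Hspa5, whose match lies inside the deposited span of the gene, the match alone is shown. A match on the strand opposite to the gene reads as the reverse complement, as it does for Creld2, Derl3 and the downstream match of Hsp90b1.
Hspa5 (ERSE, chr2:34772025-34772043, + strand): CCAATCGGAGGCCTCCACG
Hsp90b1 (ERSE, 2 matches, chr10:86705510-86705681, − strand): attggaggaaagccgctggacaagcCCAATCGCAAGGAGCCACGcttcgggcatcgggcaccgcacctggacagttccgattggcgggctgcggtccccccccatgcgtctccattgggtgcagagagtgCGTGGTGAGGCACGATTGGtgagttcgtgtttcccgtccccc
Creld2 (ERSE, chr15:88819495-88819563, + strand): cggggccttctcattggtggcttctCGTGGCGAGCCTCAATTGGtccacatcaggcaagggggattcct
Pdia6 (ERSE, chr12:17266466-17266534, + strand): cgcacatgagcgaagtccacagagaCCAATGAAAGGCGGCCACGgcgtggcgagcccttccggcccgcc
Derl3 (ERSE, chr10:75893217-75893285, + strand): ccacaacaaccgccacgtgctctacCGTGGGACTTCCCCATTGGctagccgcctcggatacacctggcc
Herpud1 (ERSE-II, chr8:94386352-94386412, + strand): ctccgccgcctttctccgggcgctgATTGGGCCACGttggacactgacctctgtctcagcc

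**Figure D1:**
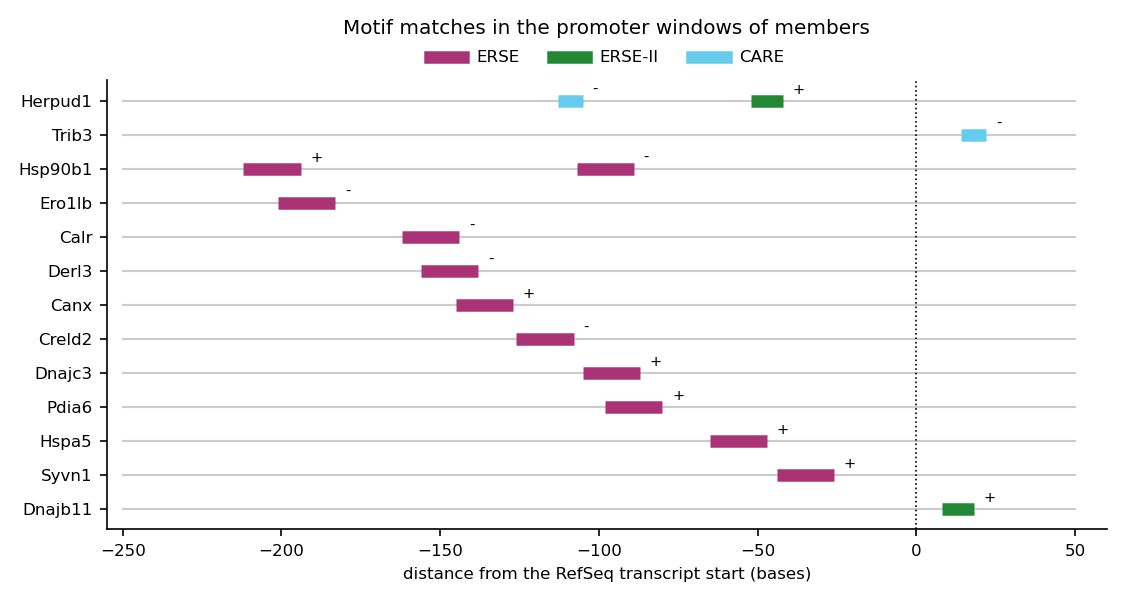
Position of each motif match relative to the RefSeq transcript start, in bases, for the 13 members with a match of any of the 3 motifs. Purple bars are ERSE, green bars ERSE-II and blue bars CARE, with the strand relative to the gene beside each bar, and all ERSE matches lie before the start, between base -212 and base -26.

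Between 31099174 and 39466332 reads were counted on genes per library, and every member had at least 89 counts in every library, so that depth did not limit the detection of any member (3 counts correspond to 0.0760 to 0.0965 CPM). CPM are counts relative to library size, here scaled by TMM factors, which adjust for libraries of differing composition and ran from 0.723 to 1.14. A pair of control libraries stood apart from the other 8. Immunoglobulin genes took 26.6% of the counts in No MM 3 and 29.0% in No MM 4, against 0.637% to 3.86% in the other 8 libraries. The summed level of 12 plasma cell markers was 13780 and 13710 CPM in these libraries and 854.0 to 1652 CPM in the other 8. No marker was at 0 in any library. At an unadjusted p-value under 0.05 (edgeR), 11 of the 12 were lower in MM, beside 10.3% of all genes tested. The exception was Fcrl5, with a log2 fold change of 2.43 and 189 CPM in MM 8. Without No MM 3 and No MM 4, 1 of 12 was lower, beside 3.37% of all genes, with 7 negative and 5 positive fold changes and a median of -0.13. The 5 MM libraries, from mice that carried a plasma cell cancer, lay between 1179 and 1652 CPM for the same markers. The summed level of 9 osteoblast markers was 4143 and 2914 CPM in No MM 3 and No MM 4 and 14420 to 50680 CPM in the others. All 9 osteocyte markers, Dmp1, Sost, Mepe and Phex among them, were detected in every library, and their sum was 511 and 379.5 CPM in No MM 3 and No MM 4, 420 CPM in MM 8, and 598 to 2612 CPM in the other 7. Markers of the labelled cell type were thus present in each library, at levels that differed widely within both groups. The labels place both of these libraries among the controls. Whether those labels are right was not tested, and every direction of MM against No MM given here takes the labels as they stand. Fold changes of members and counts by role are given with these 2 libraries and without them, and they are called the pair. In bulk RNA, fewer cells of a type and less RNA per cell cannot be told apart.

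To examine whether the ER machinery differed in osteocytes of myeloma-bearing mice, each gene was compared between MM and No MM with edgeR over all 16186 genes tested. Levels of ER genes were lower in the libraries labelled MM than in those labelled No MM on average, but no member passed the adjusted threshold. All 46 members were tested and had adjusted p-values of 0.3145 to 0.918 (edgeR, Benjamini-Hochberg), and 0 of all genes tested passed (0.0%). At an unadjusted p-value under 0.05, 30 of 46 members (65.2%) were lower in MM, beside 10.3% of all genes tested, and 0 members were higher, beside 3.81% of all genes. DESeq2 on the same genes called 5 members lower at an adjusted p-value under 0.05 (Derl3, Sel1l, Spcs1, Creld2 and Pdia4), beside 0.914% of all genes, and had 33 members lower and 0 higher at an unadjusted p-value under 0.05, beside 11.5% and 5.34% of all genes. By an exact permutation test over mice, 14 of 46 members were lower at an unadjusted p-value under 0.05, beside 5.94% of all genes tested, and 0 were higher, beside 4.69%. Log2 fold changes are MM over No MM, with the standard error after ± for single genes. The median log2 fold change was -0.98 for the 40 secretory members, -1.19 for the 3 sensors, -0.18 for the 3 effectors and -0.03 for all genes tested. The effectors differed among themselves, from -1.28 for Trib3 to 0.11 for Ddit3.

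Without No MM 3 and No MM 4, the difference was smaller. The median of the secretory members was -0.26 and that of the sensors was 0.16, with -0.02 for all genes tested. At an unadjusted p-value under 0.05, 5 members were lower (Ssr4, Spcs1, Pdia5, Ssr2 and Sec61g), beside 3.37% of all genes, and 0 were higher, beside 2.51%. The number of members with a negative fold change went from 45 of 46 to 37 of 46. For all genes tested it went from 8522 of 16186 to 8559 of 16600. Without No MM 1 as well, which was left out after the data had been seen, Spcs1 and Sec61g were lower, beside 0.519% of all genes, and the secretory median was -0.11. With the log2 of the immunoglobulin share as a covariate, Spcs1, Pdia5 and Sec61g were lower, beside 1.71% of all genes. The secretory median was then -0.16. Spcs1 and Sec61g were the members lower at an unadjusted p-value under 0.05 in these 3 fits as well as over all 10 libraries.

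**Figure D2:**
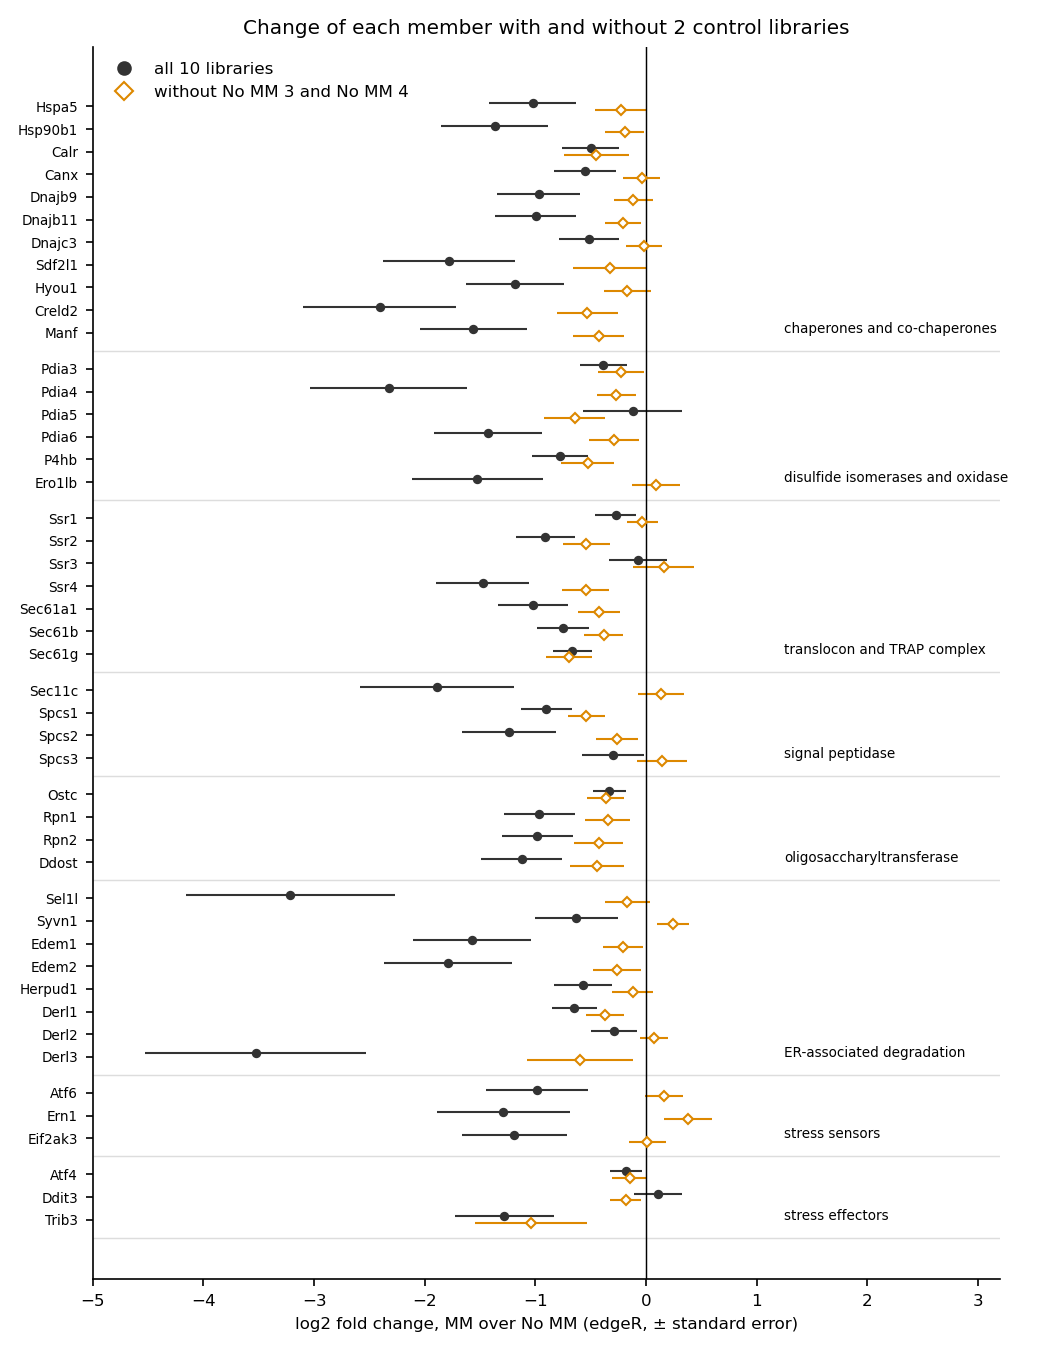
Log2 fold change, MM over No MM, of each of the 46 members with its standard error, by role, over all 10 libraries (black circles) and without No MM 3 and No MM 4 (open orange diamonds). With all libraries 45 members lie left of 0, down to -3.53 for Derl3, and without the 2 libraries the members lie between -1.04 for Trib3 and 0.38 for Ern1.

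The summed level of the 40 secretory members showed how the libraries differed. It was 9797, 7841, 26110, 21660 and 6924 CPM in No MM 1 to 5, and 6621, 7741, 7346, 6054 and 6504 CPM in MM 6 to 10. No MM 3 and No MM 4 stood above all others, No MM 1 came next, No MM 2 lay just above the MM range and No MM 5 within it. The order below the pair depended on the scaling, since as an unscaled share of all counts the secretory members took 0.827% in No MM 1 and 0.8005% in No MM 2, both within the MM range of 0.691% to 0.864%. No MM 3 and No MM 4 were the 2 highest libraries for 34 of the 40 secretory members and for 3 of the 3 sensors, and for 0 of the 3 effectors, beside 24.0% of all genes tested. The lower of the pair exceeded the highest other library by a median of 2.18-fold over those 34 secretory members, from 1.015-fold for Ssr2 to 14.5-fold for Sel1l. It did so by more than 2-fold for 19 secretory members, beside 5.09% of all genes tested, and by more than 5-fold for Sel1l, Derl3, Pdia4, Sec11c and Creld2, beside 1.45% of all genes tested. Narrow gaps did not all hold without the TMM factors, as for Ssr1, Ssr2 and P4hb. The 9 members for which the pair was not the 2 highest libraries were Calr, Pdia3, Pdia5, Ssr3, Sec61g and Ostc among the secretory members, and Atf4, Ddit3 and Trib3. Among the 8 other libraries, No MM 1 was the highest for 26 of the 40 secretory members, beside 28.2% of all genes tested. No MM 3 and No MM 4 also held the highest plasma cell marker sums, although Mzb1 was higher in No MM 1 and No MM 2 and Fcrl5 was highest in MM 8. No MM 1 held the highest erythroid marker sum (61280 CPM, with 944 to 30240 CPM in the others). It also held the highest osteoclast marker sum (13700 CPM, with 822 to 8836 CPM in the others). The part of any of these in the result was not tested.

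**Figure D3:**
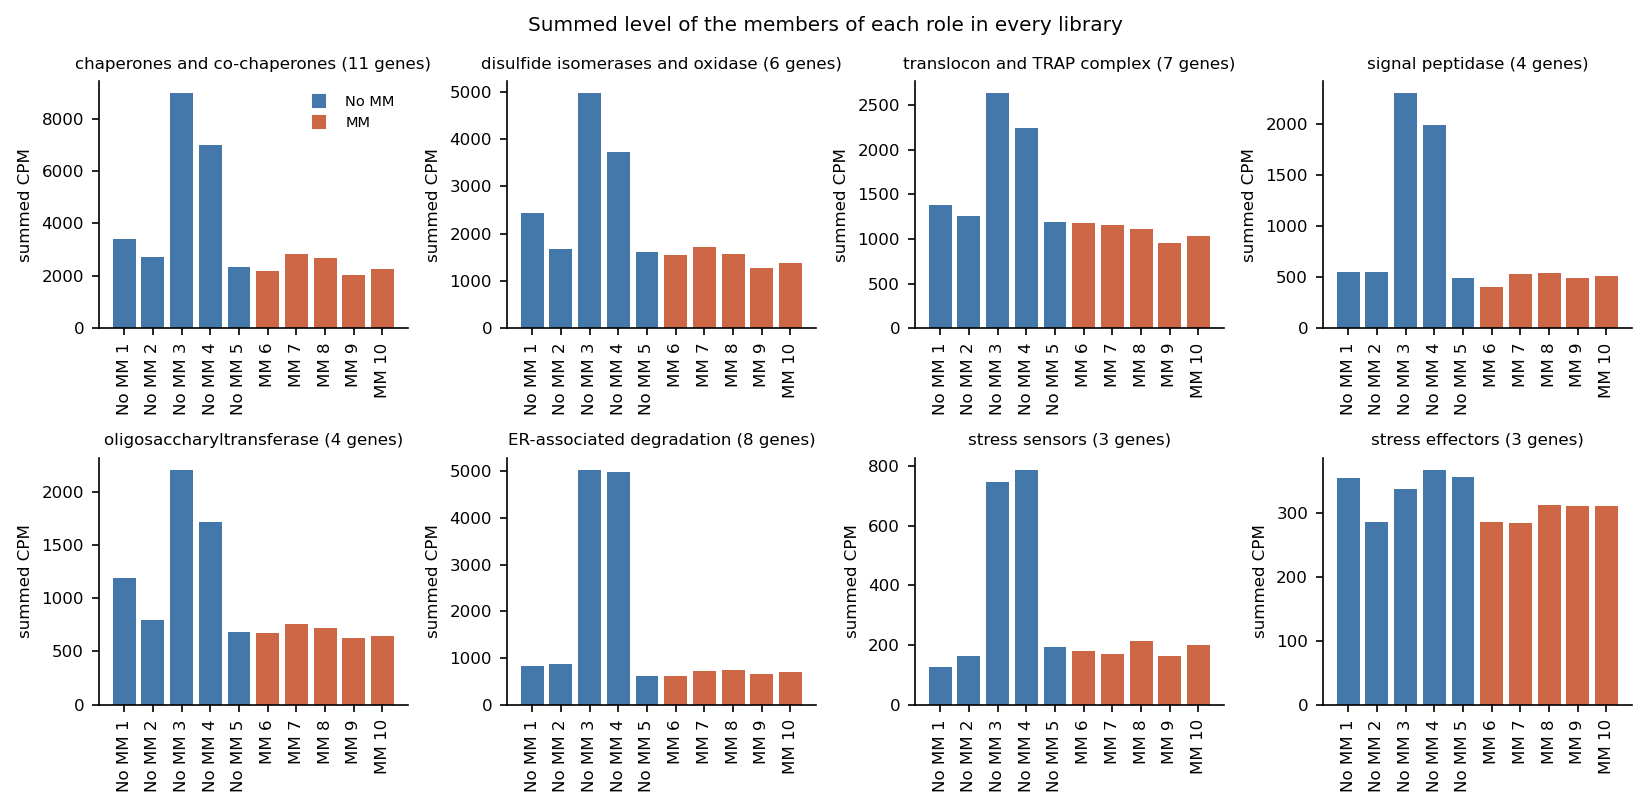
Summed CPM of the members of each role in every library, with No MM in blue and MM in orange, on linear axes that start at 0. No MM 3 and No MM 4 are the 2 tallest bars in the 6 secretory roles and the sensors. The effector sum, most of which is Atf4, lies between 284 and 367 CPM in all 10 libraries.

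Chaperones bind nascent chains and hold them until folded. Of the 11 members of this role, 8 were lower in MM at an unadjusted p-value under 0.05, beside 10.3% of all genes tested. The median log2 fold change was -1.03. The sum over the 11 was 2346 to 8966 CPM in No MM and 2038 to 2846 CPM in MM. Hspa5 (BiP), the Hsp70 chaperone that also holds the sensors inactive, had a log2 fold change of -1.03 ± 0.39 and of -0.23 ± 0.23 without the pair. Hsp90b1 (GRP94), the Hsp90 chaperone, had one of -1.37 ± 0.49 and of -0.19 ± 0.18 without it. Calr and Canx, the lectin chaperones that bind glycosylated chains, differed less, by -0.50 ± 0.26 and -0.55 ± 0.28, or -0.45 ± 0.29 and -0.04 ± 0.16 without the pair. Calr was highest in No MM 1, at 1085 CPM. The partners of BiP ranged from -0.52 ± 0.27 for Dnajc3 to -1.78 ± 0.60 for Sdf2l1, with -0.97 ± 0.38 for Dnajb9 and -0.998 ± 0.36 for Dnajb11. Without the pair they were -0.02 ± 0.17 for Dnajc3, -0.33 ± 0.33 for Sdf2l1, -0.11 ± 0.18 for Dnajb9 and -0.21 ± 0.17 for Dnajb11. Hyou1, an exchange factor of BiP, lay at -1.18 ± 0.44 and -0.17 ± 0.21 without it. Without the pair all 11 were negative, beside 8559 of all 16600 genes tested, with a median of -0.21. At an unadjusted p-value under 0.05, 0 of 11 were lower, beside 3.37% of all genes.

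Creld2, an ER-resident protein with disulfide isomerase activity that is induced on ER stress, measured 82.4, 69.6, 518, 460.1 and 34.7 CPM in No MM 1 to 5 and 37.7, 57.9, 44.2, 38.7 and 41.0 CPM in MM 6 to 10. Its levels in No MM 3 and No MM 4 were 5.58-fold or more above every other library, and the remaining No MM mice spanned the MM range, with No MM 5 below all MM mice. Its log2 fold change was -2.41 ± 0.69 (adjusted p = 0.3145, edgeR; exact permutation p = 0.0556, two-sided) and -0.53 ± 0.27 without the 2 libraries. Manf, a secreted ER stress protein with a role in protecting cells, measured 162, 129, 575, 443 and 82.6 CPM in No MM 1 to 5 and 81.9, 118, 103, 84.0 and 84.5 CPM in MM 6 to 10. The order of libraries was similar, with No MM 3, No MM 4, No MM 1 and No MM 2 above all MM mice and No MM 5 within their range. Manf differed by a log2 fold change of -1.56 ± 0.49 (adjusted p = 0.3145, edgeR; exact permutation p = 0.0476) with all libraries and of -0.43 ± 0.23 without the pair.

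Disulfide isomerases form and reshuffle the disulfide bonds of secreted proteins. In this role 4 of 6 members were lower at an unadjusted p-value under 0.05, beside 10.3% of all genes, with a median of -1.10. Without the pair 1 of 6 was lower, beside 3.37% of all genes, with a median of -0.28. Pdia4 (ERp72) measured 124, 120.5, 1154, 831 and 83.8 CPM in No MM 1 to 5 and 92.1, 109, 84.8, 80.3 and 95.1 CPM in MM 6 to 10. It was far higher in No MM 3 and No MM 4 than in any other library, with No MM 5 within the MM range and No MM 1 and No MM 2 just above it. The log2 fold change of Pdia4 was -2.33 ± 0.71 (adjusted p = 0.3145, edgeR; exact permutation p = 0.0476) and -0.27 ± 0.18 without the pair.

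P4hb (PDI), which is also the beta subunit of the prolyl 4-hydroxylase that modifies collagen, measured 1161, 737, 1464, 1197 and 718 CPM in No MM 1 to 5 and 706, 692, 623, 509 and 547 CPM in MM 6 to 10. On the TMM scale every MM mouse lay below every No MM mouse, although No MM 5 (717.8 CPM) and MM 6 (706.5 CPM) were close. Its log2 fold change was -0.78 ± 0.25 (adjusted p = 0.3145, edgeR; exact permutation p = 0.00794, the smallest that 252 assignments can give), and -0.53 ± 0.24 without No MM 3 and No MM 4. On that scale the groups did not overlap for 2 of 46 members, P4hb and Spcs1, beside 0.68% of all genes tested. For P4hb this depended on the scaling. Without the TMM factors, 1.02 in No MM 2 and 1.14 in MM 6, No MM 2 lay below MM 6. Pdia6 had a log2 fold change of -1.43 ± 0.49, or -0.29 ± 0.23 without the pair. Ero1lb, the oxidase that recharges PDI, had one of -1.52 ± 0.59, which turned to 0.09 ± 0.22 without it. Pdia3 (ERp57), which works with the lectin chaperones, had one of -0.39 ± 0.21, or -0.22 ± 0.21. Pdia5, chosen after its values had been seen, measured 31.6, 20.2, 8.04, 5.63 and 26.9 CPM in No MM 1 to 5 and 25.7, 18.0, 13.2, 11.7 and 16.6 CPM in MM 6 to 10, so that No MM 3 and No MM 4 were the 2 lowest libraries. Its log2 fold change was -0.12 ± 0.45 with all libraries and -0.64 ± 0.28 without the pair.

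At the entry to the ER stand the translocon and the associated TRAP complex (Ssr1 to Ssr4). Of these 7 members, 5 were lower in MM at an unadjusted p-value under 0.05, beside 10.3% of all genes, with a median of -0.75. Without the pair 3 of 7 were lower, beside 3.37% of all genes, with a median of -0.43. Ssr4, a TRAP subunit, measured 235, 156, 605, 544 and 122 CPM in No MM 1 to 5 and 113, 132, 120.4, 116 and 115 CPM in MM 6 to 10. The MM mice lay within a narrow band, with No MM 5 inside it and the other 4 No MM mice above it. Ssr4 showed a log2 fold change of -1.48 ± 0.42 (adjusted p = 0.3145, edgeR; exact permutation p = 0.0159) and of -0.55 ± 0.21 without No MM 3 and No MM 4.

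Sec61g, the gamma subunit of the channel, measured 138, 106, 113, 95.6 and 71.0 CPM in No MM 1 to 5 and 57.1, 72.8, 65.97, 63.0 and 70.9 CPM in MM 6 to 10. Here No MM 1 was the highest library, No MM 3 and No MM 4 lay within the range of the other No MM mice, and only MM 7 exceeded No MM 5. The log2 fold change was -0.67 ± 0.18 (adjusted p = 0.3145, edgeR; exact permutation p = 0.0159) with all libraries and -0.69 ± 0.21 without the pair, so that leaving them out did not reduce the difference. The channel subunits Sec61a1 and Sec61b had log2 fold changes of -1.02 ± 0.31 and -0.75 ± 0.24, or -0.43 ± 0.19 and -0.38 ± 0.17 without the pair. Of the TRAP subunits, Ssr1 lay at -0.28 ± 0.18 and -0.03 ± 0.14 without the pair, Ssr2 at -0.91 ± 0.27 and -0.54 ± 0.21, and Ssr3 at -0.07 ± 0.26 and 0.16 ± 0.27.

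Signal peptidase removes the leader once a chain has entered. Here 3 of 4 members were lower at an unadjusted p-value under 0.05, beside 10.3% of all genes, with a median of -1.07. Without the pair 1 of 4 was lower, beside 3.37% of all genes. There were 2 negative and 2 positive fold changes, with a median of -0.06. Spcs1, an accessory subunit, measured 171, 112, 274, 212 and 131 CPM in No MM 1 to 5 and 99.5, 102, 98.8, 85.2 and 97.0 CPM in MM 6 to 10. The groups did not overlap, and the gap between No MM 2, the lowest control, and MM 7, the highest MM mouse, was the narrowest point (112.4 and 102.1 CPM). Spcs1 gave a log2 fold change of -0.90 ± 0.23 (adjusted p = 0.3145, edgeR; adjusted p = 0.0480, DESeq2; exact permutation p = 0.00794), which was the smallest unadjusted p-value of the 46 members in edgeR (0.002645). Without No MM 3 and No MM 4 it was -0.54 ± 0.17. Spcs2, another accessory subunit, measured 183, 155, 571, 480.1 and 114 CPM in No MM 1 to 5 and 109, 147, 137, 122 and 123 CPM in MM 6 to 10. The rest lay 2.63-fold or more below No MM 3 and No MM 4, and No MM 5 lay within the MM range. Its log2 fold change was -1.24 ± 0.42 (adjusted p = 0.3145, edgeR; exact permutation p = 0.0635) and -0.26 ± 0.19 without them. Sec11c, a catalytic subunit, had a log2 fold change of -1.89 ± 0.69 with levels of 1244 and 1085 CPM in No MM 3 and No MM 4 and 93.6 to 170.0 CPM in the other 8 libraries, and 0.13 ± 0.21 without the pair. Spcs3 was at -0.30 ± 0.28, and at 0.14 ± 0.22 without it.

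The oligosaccharyltransferase transfers the sugar chain to the growing protein. Among its members 3 of 4 were lower at an unadjusted p-value under 0.05, beside 10.3% of all genes, with a median of -0.97. Without the pair 0 of 4 were lower at that threshold, beside 3.37% of all genes, with a median of -0.40. Rpn2 (ribophorin II) measured 397, 258, 714, 572 and 209 CPM in No MM 1 to 5 and 214, 242, 225, 209.6 and 198 CPM in MM 6 to 10. No MM 5 lay within the MM range and the other 4 control mice above it. Rpn2 differed by a log2 fold change of -0.98 ± 0.32 (adjusted p = 0.3145, edgeR; exact permutation p = 0.0476) and of -0.43 ± 0.22 without No MM 3 and No MM 4. Ddost, a non-catalytic subunit, measured 324, 199.5, 695, 469 and 153 CPM in No MM 1 to 5 and 158, 192, 177, 162 and 155 CPM in MM 6 to 10. No MM 5 was below all MM mice and the others above all MM mice. Its log2 fold change was -1.12 ± 0.37 (adjusted p = 0.3145, edgeR; exact permutation p = 0.0635) and -0.44 ± 0.24 without the pair. Rpn1 followed with -0.96 ± 0.32, or -0.35 ± 0.20 without the pair, and Ostc with -0.33 ± 0.15, or -0.36 ± 0.17.

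Among the sums by role, that of the 8 ERAD members had the widest gap between No MM 3 and No MM 4 and all other mice. It was 5031 and 4987 CPM in the pair and 609 to 869 CPM in the other 8 libraries. Sel1l alone gave 2580 and 2870 CPM of it in No MM 3 and No MM 4, so that the width of this gap rested largely on Sel1l. The gap was also wide for Derl3, but far narrower for Derl1, Derl2 and Herpud1. Of the ERAD members, 5 of 8 were lower at an unadjusted p-value under 0.05, beside 10.3% of all genes, with a median of -1.11. Without the pair 0 of 8 were lower at that threshold, beside 3.37% of all genes, with a median of -0.19. Sel1l, the adaptor of the ubiquitin ligase complex that exports misfolded chains, measured 142, 178, 2580, 2870 and 101 CPM in No MM 1 to 5 and 107, 122, 134.4, 119 and 149.9 CPM in MM 6 to 10. The pair was 14.5-fold or more above every other library, and the remaining No MM mice spanned more than the range of the MM mice. Sel1l showed a log2 fold change of -3.22 ± 0.95 (adjusted p = 0.3145, edgeR; adjusted p = 0.0233, DESeq2; exact permutation p = 0.135), and of -0.17 ± 0.20 without No MM 3 and No MM 4.

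Derl3, a channel component of ERAD that is known for its expression in secretory cells, measured 15.7, 17.1, 207, 222 and 3.14 CPM in No MM 1 to 5 and 5.41, 9.62, 10.4, 6.67 and 8.17 CPM in MM 6 to 10. Outside the pair the values reached at most 17.1 CPM, and No MM 5 was the lowest of all 10. Its log2 fold change of -3.53 ± 0.998 (adjusted p = 0.3145, edgeR; adjusted p = 0.0176, DESeq2; exact permutation p = 0.167) was the most negative of the 46, and was -0.60 ± 0.48 without the pair. Its homologs Derl1 and Derl2 had log2 fold changes of -0.65 ± 0.21 and -0.29 ± 0.21, or -0.37 ± 0.17 and 0.07 ± 0.12 without the pair. Syvn1 (HRD1), the ubiquitin ligase that works with SEL1L, lay at -0.63 ± 0.37 and 0.25 ± 0.14 without the pair. Herpud1, which joins that complex, lay at -0.57 ± 0.26 and -0.12 ± 0.19. Edem1 and Edem2, which mark glycoproteins for disposal, lay at -1.57 ± 0.53 and -1.79 ± 0.58, and at -0.21 ± 0.18 and -0.26 ± 0.22 without the pair.

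Of the 3 sensors, Eif2ak3 was lower in MM at an unadjusted p-value under 0.05, beside 10.3% of all genes tested. Atf6 measured 70.2, 78.8, 324, 340.0 and 92.9 CPM in No MM 1 to 5 and 88.3, 81.5, 116, 76.8 and 94.5 CPM in MM 6 to 10. Ern1, which encodes the RNase that splices Xbp1, measured 25.2, 40.2, 252, 258 and 52.0 CPM in No MM 1 to 5 and 46.4, 48.4, 58.2, 47.2 and 56.4 CPM in MM 6 to 10. Eif2ak3 measured 31.9, 44.7, 169, 189 and 48.0 CPM in No MM 1 to 5 and 44.2, 40.5, 38.5, 39.9 and 48.5 CPM in MM 6 to 10. For each sensor No MM 3 and No MM 4 were the 2 highest libraries, the lower of them 2.80-fold (Atf6) to 4.33-fold (Ern1) above the highest other library, and No MM 1 was the lowest of all 10. The log2 fold changes were -0.99 ± 0.46 for Atf6 (adjusted p = 0.363, edgeR; exact permutation p = 0.373), -1.29 ± 0.60 for Ern1 (adjusted p = 0.362, edgeR; exact permutation p = 0.421) and -1.19 ± 0.47 for Eif2ak3 (adjusted p = 0.321, edgeR; exact permutation p = 0.286). Without No MM 3 and No MM 4 they were 0.16 ± 0.17, 0.38 ± 0.22 and 0.01 ± 0.16, so that the sign of each turned.

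The pair was the 2 highest libraries for 0 of the 3 effectors, beside 24.0% of all genes tested. With 3 genes, this count says little about the effectors as a role. The effector sum was 354, 285, 338, 367 and 356 CPM in No MM 1 to 5, and 286, 284, 312, 311 and 310.1 CPM in MM 6 to 10. Thus No MM 4 was the highest by a small margin over No MM 5 and No MM 1, No MM 3 lay below these, and the groups overlapped. Without the TMM factors, No MM 5 was the highest and No MM 3 and No MM 4 were the lowest. Most of each sum was Atf4, so that the sum says little about Ddit3 and Trib3. Atf4, the transcription factor translated when PERK is active (deposited position chromosome 15, 80255184 to 80257540), measured 317, 255, 313, 341 and 324 CPM in No MM 1 to 5 and 261, 255, 285, 285 and 282 CPM in MM 6 to 10. Of the No MM mice, 4 of 5 were above all MM mice, and No MM 2 (255.1 CPM) was level with MM 7 (255.3 CPM). Atf4 gave a log2 fold change of -0.18 ± 0.15 (adjusted p = 0.587, edgeR; exact permutation p = 0.0794) and of -0.15 ± 0.16 without the pair.

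Ddit3, which encodes the factor CHOP (chromosome 10, 127290774 to 127296288), measured 24.3, 25.8, 13.2, 17.0 and 29.1 CPM in No MM 1 to 5 and 22.04, 24.97, 21.98, 23.0 and 25.8 CPM in MM 6 to 10. It was lowest in No MM 3 and No MM 4, where most chaperones were highest, and the other 8 lay between 21.98 and 29.1 CPM. The log2 fold change of Ddit3 was 0.11 ± 0.22 (adjusted p = 0.844, edgeR; exact permutation p = 0.484), the only positive value among the 46, and was -0.18 ± 0.14 without the pair. Trib3, a pseudokinase induced by ATF4 and CHOP (chromosome 2, 152337422 to 152344032), measured 12.6, 4.48, 11.1, 9.04 and 2.72 CPM in No MM 1 to 5 and 2.56, 3.40, 5.62, 2.48 and 2.32 CPM in MM 6 to 10, from 89 to 343 counts. No MM 1 was the highest library, No MM 3 and No MM 4 came next, and No MM 2 and No MM 5 lay within the MM range. Trib3 differed by a log2 fold change of -1.28 ± 0.45 (adjusted p = 0.3145, edgeR; exact permutation p = 0.0635) and of -1.04 ± 0.51 without the pair (unadjusted p = 0.0696, edgeR). On a scale per kilobase of gene length, the mean level in MM was 158.8 CPM for Atf4, 24.3 CPM for Ddit3 and 1.62 CPM for Trib3, the lowest of the 46, beside 252.5 CPM for Calr, the highest.

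**Figure D4:**
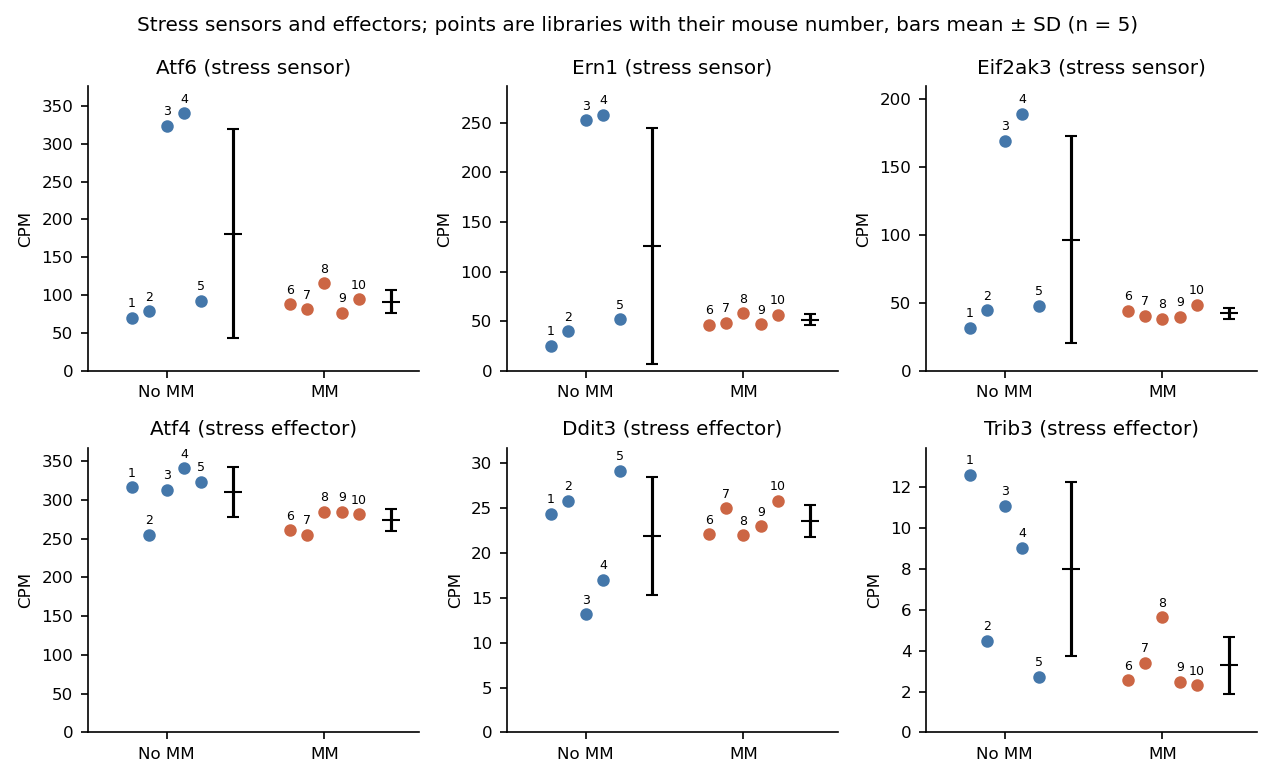
CPM of the 3 sensors (top) and the 3 effectors (bottom) in each library, with the mouse number above each point and the mean ± SD of 5 mice per group beside it. No MM 3 and No MM 4 are above all other mice for Atf6, Ern1 and Eif2ak3, are not the 2 highest for Atf4 and Trib3, and are below all others for Ddit3.

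The immunoglobulin share of a library and its summed ER gene level were set side by side as a description, without a correlation, since 2 libraries lay far from the other 8. Secretory members took 2.05% and 1.56% of all counts in No MM 3 and No MM 4, and 0.691% to 0.864% in the other 8 libraries. Over those 8, with immunoglobulin shares of 0.637% to 3.86%, the secretory sum ran from 6054 to 9797 CPM. The effector sum, most of which was Atf4, was 338 and 367 CPM in the pair and 284 to 356 CPM in the others.

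**Figure D5:**
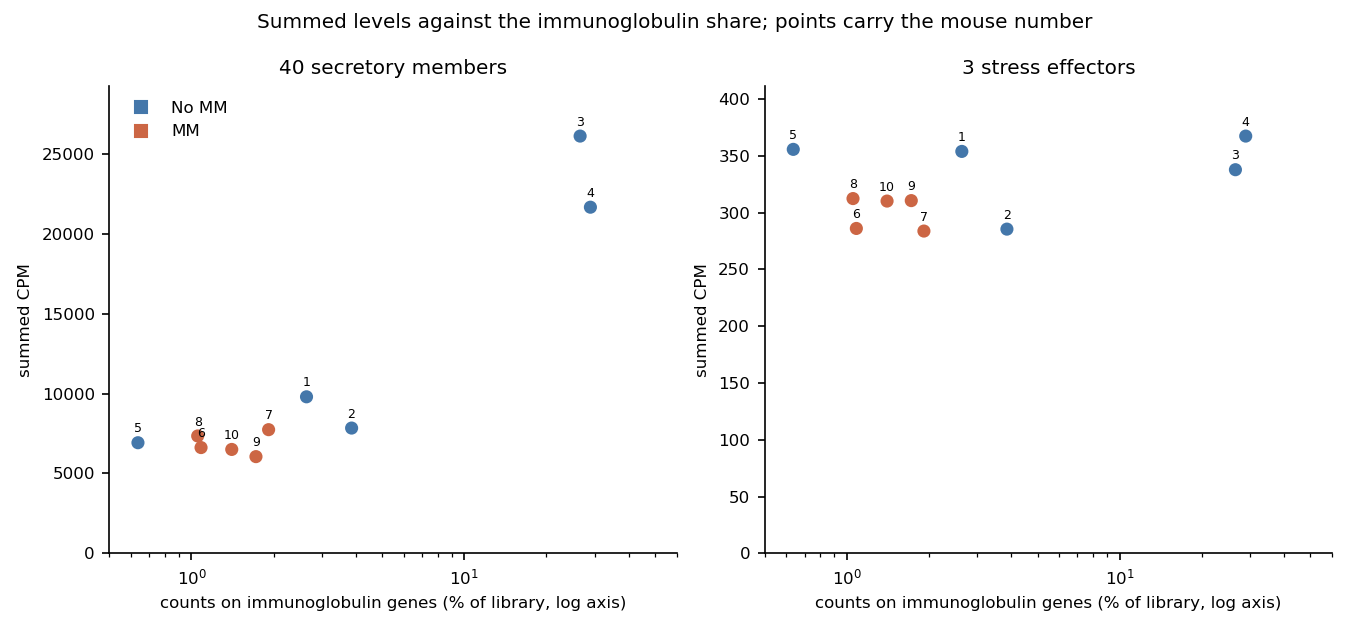
Summed CPM of the 40 secretory members (left) and of the 3 effectors (right) against the percentage of counts on immunoglobulin genes (log axis), 1 point per library with its mouse number. No MM 3 and No MM 4, at 26.6% and 29.0% immunoglobulin counts, have the highest secretory sums (26110 and 21660 CPM). On the TMM scale, their effector sums are 338 and 367 CPM, close to those of No MM 1 (354 CPM) and No MM 5 (356 CPM). Most of each effector sum is Atf4.

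A further list of ER import, folding and export genes held 59 genes, of which 58 were in the table and 56 were tested. Of these, 32 were lower in MM and 0 higher at an unadjusted p-value under 0.05, beside the 10.3% and 3.81% of all genes tested, with a median of -0.57. Without No MM 3 and No MM 4, 7 were lower and 0 higher, beside 3.37% and 2.51% of all genes, with a median of -0.27. The list also holds Ostm1, a lysosomal protein that is not part of this machinery, and shares Xbp1, Mzb1 and Txndc5 with the plasma cell markers. The smallest p-values were those of Mzb1, a BiP-associated chaperone of antibody assembly, at -1.35 ± 0.35, and of Selk, an ER selenoprotein, at -0.51 ± 0.13. Mzb1 measured 87.6, 70.4, 62.9, 65.6 and 17.45 CPM in No MM 1 to 5 and 18.8 to 29.8 CPM in MM, so that its high libraries were 4 control mice rather than 2. In the opposite direction the smallest p-values were those of Nucb2, a calcium-binding protein, at 0.44 ± 0.29 and Sec61a2, a second form of the channel's alpha subunit, at 0.23 ± 0.25.

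Targets of the integrated stress response, the branch through PERK and ATF4, were a separate list of 22 genes. Of these, 11 were lower in MM and 0 higher at the same threshold, beside 10.3% and 3.81% of all genes tested, with a median of -0.59. Without the pair 5 were lower and 0 higher, beside 3.37% and 2.51% of all genes, with a median of -0.47. Their sum was 2259 CPM in No MM 1, 2072 and 2008 CPM in No MM 3 and No MM 4, and 1094 to 1291 CPM in the other 7 libraries. Atf5, a transcription factor related to ATF4, measured 82.0, 57.6, 240.2, 199.8 and 54.8 CPM in No MM 1 to 5 and 53.5, 37.3, 30.1, 27.7 and 32.8 CPM in MM 6 to 10, with every MM mouse below every No MM mouse (0.68% of all genes tested) and a log2 fold change of -1.81 ± 0.44 (adjusted p = 0.3145, edgeR). Without the TMM factors No MM 2 lay below MM 6 for Atf5, so that this separation depended on the scaling. Chac1, an enzyme that degrades glutathione, had a log2 fold change of -1.24 ± 0.36. In the opposite direction the smallest p-values were those of Cebpb, a transcription factor, at 0.34 ± 0.20, and Vldlr, a lipoprotein receptor, at 0.90 ± 0.57. Fgf21, a secreted hormone of the stress response that was picked after its values had been seen, measured 161.7 and 169.1 CPM in No MM 3 and No MM 4 and at most 2.89 CPM in the other 8 libraries.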

How the data were processed

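RNA was prepared from osteocytes of 5 No MM and 5 MM mice by a stranded total RNA protocol (TruSeq) and read in paired-end format, 1 library for each mouse. Groups were taken from the labels. The submitters' processing notes name FastQC 0.11.5 and STAR. The genome build, the annotation, the counting tool and its strand setting are not given in the sources used here. The authors deposited 1 table of read counts per gene for 22548 genes, as whole numbers without normalization, together with a gene length that was used for levels per kilobase. They also deposited normalized values, FPKM values and their own fold changes and p-values, which were not used. Deposited positions overlapped the GENCODE M21 (GRCm38) gene of the same identifier for 46 of 46 members, and 29 had the same position.

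Counts were analyzed in R 4.3.3 with edgeR 4.0.16 (filterByExpr, TMM, glmQLFit and glmQLFTest, no covariates), which left 16186 genes. Adjustment followed Benjamini and Hochberg across the whole set, with a threshold of 0.05. The standard error was taken from the fold change and its F statistic. Genes were also compared by an exact permutation test, two-sided, of mean log2 CPM (prior count 2) over 252 assignments of the 10 mice, and over fewer where mice were left out. Alternatives were DESeq2 1.42.0, RLE size factors, no filter, at least 10 counts in every library and each mouse left out. Further alternatives were No MM 3 and No MM 4 left out, immunoglobulin genes removed and the log2 of the immunoglobulin share as a covariate. Intervals and floors of 3 counts cover counting error only, and the widest Wilson 95% interval of an immunoglobulin share ran from 28.96% to 28.99%.

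The members and lists were chosen with earlier results of these data known. Described library by library were the sensors, the effectors, the 2 members with the smallest p-value in each other role and members whose groups did not overlap. Pdia5 was added after its values had been seen. From the further lists, the 2 genes with the smallest p-value in each direction were named.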

Additional observations from a re-analysis of the deposited data

Results flagged for a closer look

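Sec11c, a catalytic subunit of signal peptidase, had 1 MM library far from the other MM libraries. It measured 93.6 CPM in MM 6 and 150.6, 152.2, 168.1 and 170.0 CPM in MM 7 to 10. Its distance from MM 7 made up 0.746 of the whole range in the group, above the Dixon limit of 0.71 for 5 samples. Of 108 sets of 5 libraries examined this was the 1 set that passed, and about 5.4 would pass by chance at 5%.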

How the results depend on the processing

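Under DESeq2, 5 members were called at an adjusted p-value under 0.05, and edgeR called 0 in every other setting. The count of members lower at an unadjusted p-value under 0.05 was 30 over all libraries and 22 to 36 with 1 mouse left out. It was 5 without No MM 3 and No MM 4, 2 without No MM 1 as well and 3 with the log2 immunoglobulin share as a covariate. The secretory median was -0.26, -0.11 and -0.16 in these 3 settings and -1.15 to -0.70 with 1 mouse left out. Of the 18 members described library by library under the rule, most of which were chosen for a small p-value, 7 had an exact permutation p-value under 0.05 with all libraries, 3 without No MM 3 and No MM 4, 2 without No MM 1 as well, and 3 to 13 with 1 mouse left out. With No MM 5 left out the number was 13 and with No MM 2 left out it was 11, whereas leaving out MM 6, MM 7, MM 9 or MM 10 gave 3 and leaving out MM 8 gave 4. Fewer assignments are possible with fewer mice, and without No MM 3 and No MM 4 the smallest possible p-value is larger. These counts are therefore not directly comparable.

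Signs turned for 13 members in at least 1 setting. Without No MM 3 and No MM 4, the log2 fold change was 0.091 for Ero1lb, 0.16 for Ssr3, 0.13 for Sec11c, 0.14 for Spcs3, 0.25 for Syvn1, 0.072 for Derl2, 0.16 for Atf6, 0.38 for Ern1, 0.012 for Eif2ak3 and -0.18 for Ddit3. Without No MM 1 as well, it was 0.043 for Ero1lb, 0.069 for Sec11c, 0.15 for Syvn1, 0.063 for Derl2, 0.079 for Atf6, 0.14 for Ern1 and -0.23 for Ddit3. With the covariate, it was 0.20 for Ero1lb, 0.078 for Ssr3, 0.17 for Spcs3, 0.25 for Syvn1, 0.0036 for Herpud1, 0.071 for Derl2, 0.17 for Derl3, 0.043 for Atf6, 0.12 for Ern1 and -0.19 for Ddit3. With 1 mouse left out, Pdia5 ranged from -0.35 to 0.16, Ssr3 from -0.24 to 0.051 and Ddit3 from -0.033 to 0.23. The cause was not tested. The effector median lay between -0.25 and -0.15 in all of these settings, but as the middle value of 3 genes it does not show their spread. No paired analysis was possible because mice are numbered 1 to 10 across both groups, so that no number occurs in both. Depth did not limit any member. The biological coefficient of variation was 0.460.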
